A study of Mus musculus with 18 samples.

Results

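SREBP2 signalling and cholesterol biosynthesis were examined through 27 genes in the livers of 18 mice. The genes form a list of names that sets no threshold on a measured value, although earlier results of these data were known when it was drawn up, and each was found in the deposited table, which lists 35441 genes. They comprise 19 enzymes on the route from acetyl-CoA to cholesterol, Ggps1 of the geranylgeranyl branch, Srebf2 with 5 genes that control the processing of its protein, and the sterol carrier Stard4. The list does not hold every enzyme of the route, and the others are not analysed here. All 27 genes passed the filter on low values (more than 100 estimated reads summed over the mice), as did 14533 genes in all, and the lowest value of any of the 27 in any mouse was 77.7 reads.

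Polyadenylated RNA was sequenced from livers of WT mice, Lipa-/- mice and rAAV8-treated Lipa-/- mice, with 3 mice in each of the 6 groups formed by these and by 12- or 34-weeks post-injection (3 and 8 months in the sample labels). Lipa encodes lysosomal acid lipase, which frees cholesterol and fatty acids from the cholesteryl esters and triglycerides that reach the lysosome. All animals were male on a C57/BL6N background. Untreated and treated Lipa-/- mice carry the same germline loss of exon 4, made with a Cre that is driven by the CMV promoter. Treated mice received as young adults a rAAV8 vector with the human LIPA cDNA under the hAAT promoter, which is active in hepatocytes. The months in the labels match the time after this injection and not the age of the mice. The vector adds a human copy and leaves the murine deletion in place in every cell type. WT and untreated Lipa-/- mice are labelled as having no treatment. The study describes that nearly all untreated Lipa-/- mice of its long follow-up were killed at preset endpoints before its last time point. The labels put 3 such mice at 8 months and do not give the age of each, so the untreated group called 34-weeks here may hold younger animals, and age and genotype cannot be told apart in it. All 34-weeks mice share 1 prefix of the sample name, and the 12-weeks mice share another except Lipa-/- mouse 5. The labels do not say what the prefix stands for, and time point and prefix cannot be told apart.

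Cholesterol is built from acetyl-CoA through mevalonate, isoprenoid diphosphates, squalene and lanosterol, and the liver is a major site of this synthesis. SREBP2, the product of Srebf2, is held in the endoplasmic reticulum with its escort SCAP while sterols are plentiful, because the INSIG proteins retain the complex there. When sterols fall, SCAP carries SREBP2 to the Golgi, where the proteases encoded by Mbtps1 and Mbtps2 release its transcription factor domain, which raises transcription of the synthesis enzymes and of its own gene. Insig1 is itself a target of SREBP2, whereas Insig2 is not driven by it in the same way. Cholesterol released from lysosomes is among the sources that this sensor responds to.

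SREBP2 binds sterol regulatory elements, usually with NF-Y at a CCAAT box and Sp1 at a GC box close by, so the stretch before the start of transcription is shown for 8 genes on which the results below turn. Each line gives the 150 bases before the RefSeq start (build GRCm38.p6), read in the direction of the gene, and capitals mark TCACNCCAC, a form of the sterol regulatory element, or CCAAT, each on either strand. The positions are, in the same order, chr13:119690201-119690350 (+), chr8:122443423-122443572 (-), chr10:76531455-76531604 (+), chr15:82147119-82147268 (+), chr5:28071262-28071411 (+), chr1:121332590-121332739 (-), chr19:6067851-6068000 (-) and chrX:8193513-8193662 (-). All lie upstream of the first exon of the named gene. For Insig2, the most upstream of its 3 annotated starts is shown.
Hmgcs1: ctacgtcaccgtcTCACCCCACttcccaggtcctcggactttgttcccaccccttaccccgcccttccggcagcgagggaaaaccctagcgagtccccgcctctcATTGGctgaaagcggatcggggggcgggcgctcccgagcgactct
Mvd: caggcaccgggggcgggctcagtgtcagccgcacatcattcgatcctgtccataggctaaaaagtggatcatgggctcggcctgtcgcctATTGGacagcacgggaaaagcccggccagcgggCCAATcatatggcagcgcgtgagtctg
Lss: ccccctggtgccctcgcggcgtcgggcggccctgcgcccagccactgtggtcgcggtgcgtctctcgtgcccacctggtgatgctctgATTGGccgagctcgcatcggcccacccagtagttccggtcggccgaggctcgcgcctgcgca
Srebf2: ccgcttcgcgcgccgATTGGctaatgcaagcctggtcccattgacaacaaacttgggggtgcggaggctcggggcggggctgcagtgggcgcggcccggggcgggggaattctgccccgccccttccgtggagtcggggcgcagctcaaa
Insig1: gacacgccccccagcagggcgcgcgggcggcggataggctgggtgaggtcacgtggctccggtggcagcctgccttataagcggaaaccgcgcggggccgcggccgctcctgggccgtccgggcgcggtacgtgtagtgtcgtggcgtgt
Insig2: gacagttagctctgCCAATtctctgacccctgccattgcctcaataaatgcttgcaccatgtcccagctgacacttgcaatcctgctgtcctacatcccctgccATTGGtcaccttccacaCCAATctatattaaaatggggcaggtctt
Tm7sf2: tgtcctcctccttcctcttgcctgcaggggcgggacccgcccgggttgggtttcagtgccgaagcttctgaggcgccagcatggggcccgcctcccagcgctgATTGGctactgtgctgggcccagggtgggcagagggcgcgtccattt
Ebp: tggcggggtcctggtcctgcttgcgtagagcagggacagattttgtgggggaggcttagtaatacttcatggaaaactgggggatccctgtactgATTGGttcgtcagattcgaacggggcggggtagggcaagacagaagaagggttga

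Hmgcs1 held TCACNCCAC 137 bases before its start on the gene strand and a CCAAT box 45 bases before it on the other strand. Mvd held CCAAT boxes at 60 and 27 bases, and the first Insig2 start held 3, at 136, 46 and 29 bases. Lss, Srebf2, Tm7sf2 and Ebp held 1 CCAAT box each, 62, 135, 47 and 55 bases before the start, whereas the Insig1 stretch held neither motif. In windows from 250 bases before to 50 bases after the start, TCACNCCAC was found in 1 of the 23 genes that could be matched (Hmgcs1) and in 1.44% of 27025 symbols. CCAAT was found in 19 of the 23 and in 41.1% of symbols, and the GC box letters GGGCGG (either strand) in 20 of 23 and in 38.2% of symbols. The motifs were searched separately, so matches may share bases, and a match is only a string of letters. Fdps, Fdft1, Sqle and Stard4 had no entry.

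Library size was 17527800 to 25833100 estimated reads. Murine Lipa reads stood at 202 to 323 normalised counts (CPM, the counts relative to TMM-scaled library size) in WT mice and at 16.7 to 37.0 in untreated and treated Lipa-/- mice. The human transgene reached 523 to 2746 CPM in treated mice, was at most 0.906 in WT mice and had no read in untreated Lipa-/- mice. The 6 hepatocyte markers (Ahsg, Ambp, Apoh, Fgb, Hnf4a and Vtn) were detected in every liver, with summed levels of 10627 to 22211 CPM. Major urinary protein transcripts took 3.32% to 16.3% of the reads in WT mice, 0.0119% to 0.216% in Lipa-/- mice and 9.11% to 25.0% in treated mice at 12-weeks. TMM factors spanned 0.587 to 1.69. Scaling by total counts instead shifted the median over all genes, on the log2 scale, by 0.47 (Lipa-/- against WT, 12-weeks), 0.63 (the same at 34-weeks), −0.87 (treated against untreated, 12-weeks), −0.54 (the same at 34-weeks) and −0.39 (treated against WT, 12-weeks). All changes below are relative to TMM scaling, and calls of the 27 genes that total counts end are named with each comparison.

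In WT livers the 27 transcripts spanned a wide range. Levels are given here as TPM, which corrects for transcript length and is a share of all transcripts of the liver. Over the 6 WT mice this length-corrected level had its median at 535 for Fdps, the farnesyl diphosphate synthase, with a range from 197 to 618. Sc5d, which encodes the sterol desaturase late in the route, had a median of 339 TPM (249 to 434). Both INSIG transcripts followed, with medians of 264 for Insig2 (197 to 319.9) and 242 for Insig1 (132 to 521). The ranges of these 4 genes overlapped. Hmgcs1 (HMG-CoA synthase), Ebp (a sterol isomerase) and Tm7sf2 (a sterol C14 reductase) stood close together at medians of 181, 172 and 172 TPM. Srebf2 itself was low, at 12.7 TPM (6.56 to 21.7), and so was its escort Scap at 27.4 TPM (12.8 to 32.1). The lowest levels were those of Ggps1 (median 4.49, range 3.62 to 5.45 TPM), Lbr (3.15, 2.65 to 3.56 TPM) and Mbtps2 (1.72, 1.28 to 2.17 TPM). From Fdps down to Mbtps1 (6.68 to 16.8 TPM) each gene overlapped its neighbour in the order of medians, whereas these last 3 overlapped neither Mbtps1 nor each other.

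**Figure D1:**
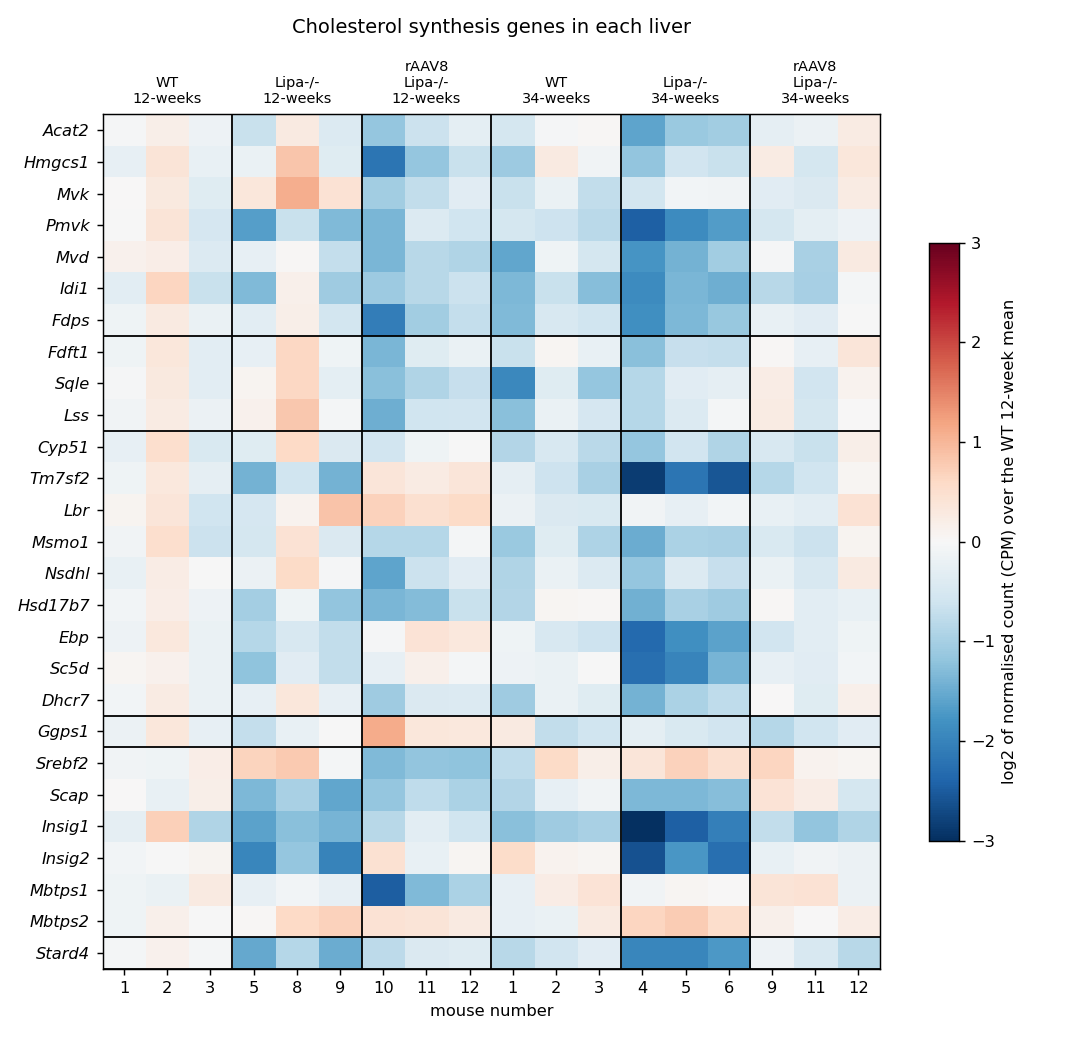
Each row is 1 of the 27 genes, in the order of the route and then its regulators, and each column is 1 of the 18 mice, grouped by genotype, treatment and time point. Colour gives the log2 of the normalised count over the mean of the 3 WT mice at 12-weeks, from −3 (blue) to 3 (red). Insig2 is a deeper blue in the 6 Lipa-/- mice (63.3 to 173 CPM) than in any of the other 12 (335 to 572 CPM), which lie nearer to that mean.

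The first question was which of these genes differ between Lipa-/- and WT livers at 12-weeks. In Lipa-/- mice 6 of the 27 genes were lower and none was higher: both INSIG genes, Scap, Stard4, and the enzymes Pmvk and Tm7sf2. A gene was called when its absolute log2 fold change exceeded 1 at an adjusted p below 0.05 (edgeR quasi-likelihood test, Benjamini-Hochberg over all 14533 genes). Of all genes tested 29.3% were called and 9.06% were called lower. At an adjusted p below 0.05 alone 8 of the 27 were lower and none higher, with 39.2% of all genes passing. Because whole liver was sequenced, fewer hepatocytes and less RNA per hepatocyte cannot be told apart. The median log2 fold change was −0.20 over the 27 genes and 0.02 over all genes, and under total counts the median of the 27 turned to 0.27 and that of all genes to 0.49.

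Among the regulators, Insig2 was at 368, 387 and 412 CPM in the WT mice and at 99.9, 173 and 97.1 CPM in the Lipa-/- mice. The highest Lipa-/- mouse was thus below the lowest WT mouse, and the log2 fold change was −1.66 ± 0.28 SE, adjusted p = 0.000162. Insig1 stood at 859, 1688 and 554 CPM in WT mice, a wide spread set by mouse 2, and at 339, 436 and 392 CPM in Lipa-/- mice, all below the WT range (−1.41 ± 0.34 SE, adjusted p = 0.00339). Scap was at 112, 96.2 and 126 CPM in WT and 43.9, 57.1 and 37.8 CPM in Lipa-/- livers, with no overlap (−1.27 ± 0.25 SE, adjusted p = 0.00082). Transcripts of the other 3 regulators were not called. Srebf2 had 43.9, 43.5 and 54.7 CPM in WT mice and 75.0, 81.7 and 45.1 CPM in Lipa-/- mice. The WT values lay close together and the Lipa-/- values reached from inside to above them (0.51 ± 0.29 SE, adjusted p = 0.177). For Mbtps1 the difference was −0.19 ± 0.29, adjusted p = 0.645 and for Mbtps2 0.47 ± 0.21, adjusted p = 0.0852. Stard4, whose protein moves cholesterol between membranes, was at 113, 129 and 113 CPM in WT and 41.0, 64.8 and 41.9 CPM in Lipa-/- mice, again without overlap (−1.26 ± 0.22 SE, adjusted p = 0.000298).

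Of the 19 enzymes 2 were called lower. Pmvk, the phosphomevalonate kinase, was at 107, 139.7 and 75.8 CPM in WT and 34.0, 68.1 and 43.1 CPM in Lipa-/- mice (−1.15 ± 0.30 SE, adjusted p = 0.0063). Tm7sf2 was at 237, 327 and 218 CPM in WT and 97.9, 173 and 96.8 CPM in Lipa-/- mice (−1.09 ± 0.29 SE, adjusted p = 0.00721). In both genes the groups did not overlap, and mouse 8 was the highest of the Lipa-/- mice. Ebp (−0.68 ± 0.23, adjusted p = 0.028) and Sc5d (−0.73 ± 0.26, adjusted p = 0.0318) passed the adjusted p but not the fold. The other 15 enzymes passed neither. For Hmgcs1, which carries the sterol element shown above, WT mice had 478, 747 and 488 CPM and Lipa-/- mice 496, 1015 and 443 CPM. The groups overlapped, and the difference was 0.19 ± 0.42, adjusted p = 0.753, with a 95% confidence interval of −0.70 to 1.08. Sqle, which encodes the epoxidase that oxidises squalene, differed by 0.19 ± 0.34, adjusted p = 0.703 (95% confidence interval of −0.54 to 0.91), and Fdps by −0.20 ± 0.32, adjusted p = 0.662 (95% confidence interval of −0.88 to 0.48). These intervals hold changes of either sign, so a difference was not detectable with 3 mice per group. Mvk, the mevalonate kinase, had Lipa-/- values of 42.7, 71.6 and 45.3 CPM, all above the WT values of 33.9, 41.2 and 26.3 CPM, but missed both thresholds (0.65 ± 0.27 SE, adjusted p = 0.0639).

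Calls at 12-weeks rested on the scaling and on WT mouse 2. With total counts only Insig2 stayed lower (log2 fold change −1.20), the calls of Insig1 (−0.91), Scap (−0.81), Stard4 (−0.79), Pmvk (−0.67) and Tm7sf2 (−0.61) ended, and Mvk became higher (1.13), and with limma on log2(TPM + 0.1) only Insig2 was called (−1.32). Without WT mouse 2 the count fell from 6 to 3, as Insig1, Pmvk and Tm7sf2 were no longer called. Of 8 macrophage markers 6 were called higher in these livers and 1, Timd4, lower, with summed levels of 3667 to 7223 CPM against 107 to 281 CPM in WT mice. Timd4, a marker of resident Kupffer cells, had no read in Lipa-/- mouse 9. All 6 fibroblast and stellate markers and 4 of 4 neutrophil markers were also called higher, and none of the 6 hepatocyte markers was called. The part of these other cell types in the results was not tested.

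**Figure D2:**
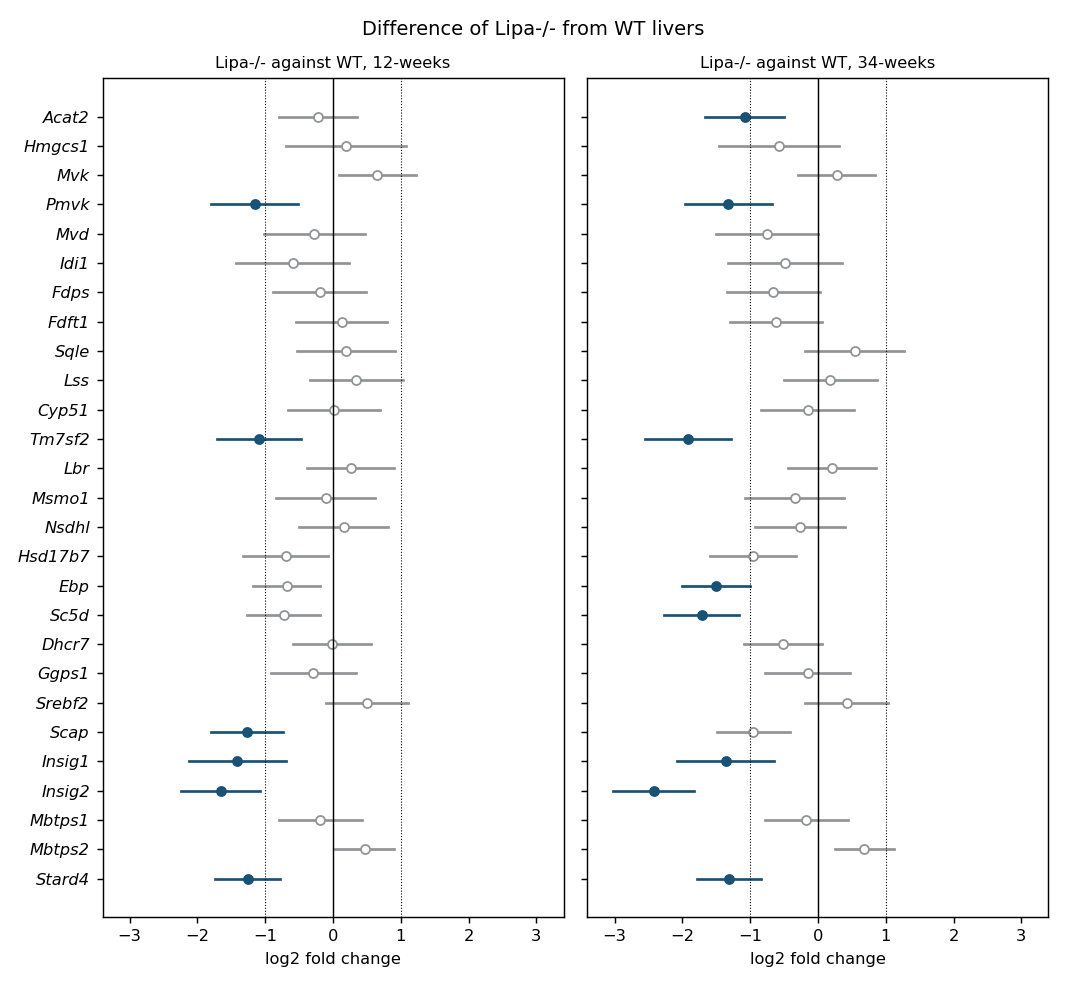
Points give the log2 fold change of each of the 27 genes between Lipa-/- and WT livers and lines its 95% confidence interval, in separate panels by time point. Filled points passed both thresholds and dotted lines mark a log2 fold change of 1 in either direction. The filled points are all to the left of 0, 6 at 12-weeks and 8 at 34-weeks.

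At 34-weeks 8 of the 27 genes were lower in Lipa-/- than in WT livers and none was higher. These were Insig1, Insig2, Stard4, Pmvk and Tm7sf2 as at 12-weeks, now with Acat2, Ebp and Sc5d, so that 5 of the 19 enzymes were called. Of all genes 36.3% were called and 15.7% were called lower. At an adjusted p below 0.05 alone 10 were lower and 1, Mbtps2, was higher, beside 47.3% of all genes. The median log2 fold change was −0.57 over the 27 genes and −0.03 over all genes, and under total counts these medians were −0.02 and 0.60. Total counts kept the calls of Insig2 (−1.78), Tm7sf2 (−1.27) and Sc5d (−1.11), ended those of Ebp (−0.87), Insig1 (−0.77), Stard4 (−0.70), Pmvk (−0.70) and Acat2 (−0.49), and made Mbtps2 (1.31) and Sqle (1.09) higher.

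Insig2 was at 572, 416 and 407 CPM in WT and 63.3, 117 and 81.0 CPM in Lipa-/- mice. Every Lipa-/- mouse was far below every WT mouse (−2.42 ± 0.28 SE, adjusted p = 3.8e-06), the largest difference among the 27 genes at this time point. Insig1 stood at 433, 491 and 527 CPM in WT mice, without the spread seen at 12-weeks, and at 125, 191 and 249 CPM in Lipa-/- mice (−1.36 ± 0.34 SE, adjusted p = 0.00331). Stard4 was at 66.6, 79.5 and 93.6 CPM and 30.4, 30.3 and 35.6 CPM, also without overlap (−1.32 ± 0.22 SE, adjusted p = 0.000147). Scap was at 60.2, 94.5 and 104 CPM in WT and 44.0, 44.1 and 45.8 CPM in Lipa-/- mice. Its groups did not overlap, and it passed the adjusted p but not the fold (−0.95 ± 0.25 SE, adjusted p = 0.00507). Srebf2 was at 27.8, 70.7 and 53.1 CPM in WT mice, where mouse 1 was lowest, and at 61.1, 76.4 and 65.8 CPM in Lipa-/- mice (0.42 ± 0.29 SE, adjusted p = 0.243). Mbtps2 differed by 0.68 ± 0.21, adjusted p = 0.0119.

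The steps after lanosterol held the largest enzyme differences. Tm7sf2 was at 216, 169 and 132 CPM in WT and 36.0, 57.1 and 44.1 CPM in Lipa-/- mice (−1.91 ± 0.30 SE, adjusted p = 6.73e-05). Sc5d was at 795, 776 and 885 CPM and 186, 225 and 337 CPM (−1.72 ± 0.26 SE, adjusted p = 5.08e-05). Ebp was at 260.1, 202 and 184 CPM and 56.4, 79.5 and 92.6 CPM (−1.50 ± 0.24 SE, adjusted p = 7.25e-05). In these 3 genes the WT and Lipa-/- values were well apart. Hsd17b7, a sterol ketoreductase, passed the adjusted p alone (−0.96 ± 0.30, adjusted p = 0.0145). Other genes of these steps did not pass the test. Lbr, which like Tm7sf2 encodes a C14 reductase, differed by 0.21 ± 0.30, adjusted p = 0.608 and Cyp51, the lanosterol demethylase, by −0.15 ± 0.32, adjusted p = 0.729.

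In the first steps, Pmvk was at 75.0, 70.0 and 61.0 CPM in WT and 19.7, 29.1 and 33.7 CPM in Lipa-/- mice (−1.32 ± 0.31 SE, adjusted p = 0.00194). Acat2, the cytosolic thiolase, was at 107, 149 and 158 CPM and 51.5, 70.6 and 74.1 CPM, without overlap (−1.08 ± 0.28 SE, adjusted p = 0.00394). Its value is less certain, because reads can be shared with the near copy Acat3, which had a mean of 463 CPM in WT and 112 CPM in Lipa-/- livers. The Acat2 call was also lost with upper-quartile scaling and without WT mouse 3 or Lipa-/- mouse 4. Hmgcs1 (−0.57 ± 0.42, adjusted p = 0.28), Fdps (−0.66 ± 0.32, adjusted p = 0.104), Fdft1 (−0.62 ± 0.32, adjusted p = 0.123), Sqle (0.54 ± 0.34, adjusted p = 0.209) and Lss (0.18 ± 0.32, adjusted p = 0.679) did not pass. Macrophage markers summed to 2890 to 5088 CPM in Lipa-/- and 190 to 408 CPM in WT livers, with 6 of 8 called higher, Timd4 and Clec4f (both of resident Kupffer cells) called lower, and no Timd4 read in Lipa-/- mouse 6. All 6 fibroblast and stellate markers and all 4 cholangiocyte markers were called higher, 1 of 6 hepatocyte markers was called lower, and their part was not tested.

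Whether the difference between Lipa-/- and WT livers changed between the time points was tested as an interaction, and none of the 27 genes was called beside 0.0619% of all genes. At an unadjusted p below 0.05, 3 genes passed, and no alternative, DESeq2 and limma included, called any. Sc5d had the largest estimate, −0.99 ± 0.36, adjusted p = 0.363, and the additional calls at 34-weeks are therefore not shown to differ from 12-weeks.

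**Figure D3:**
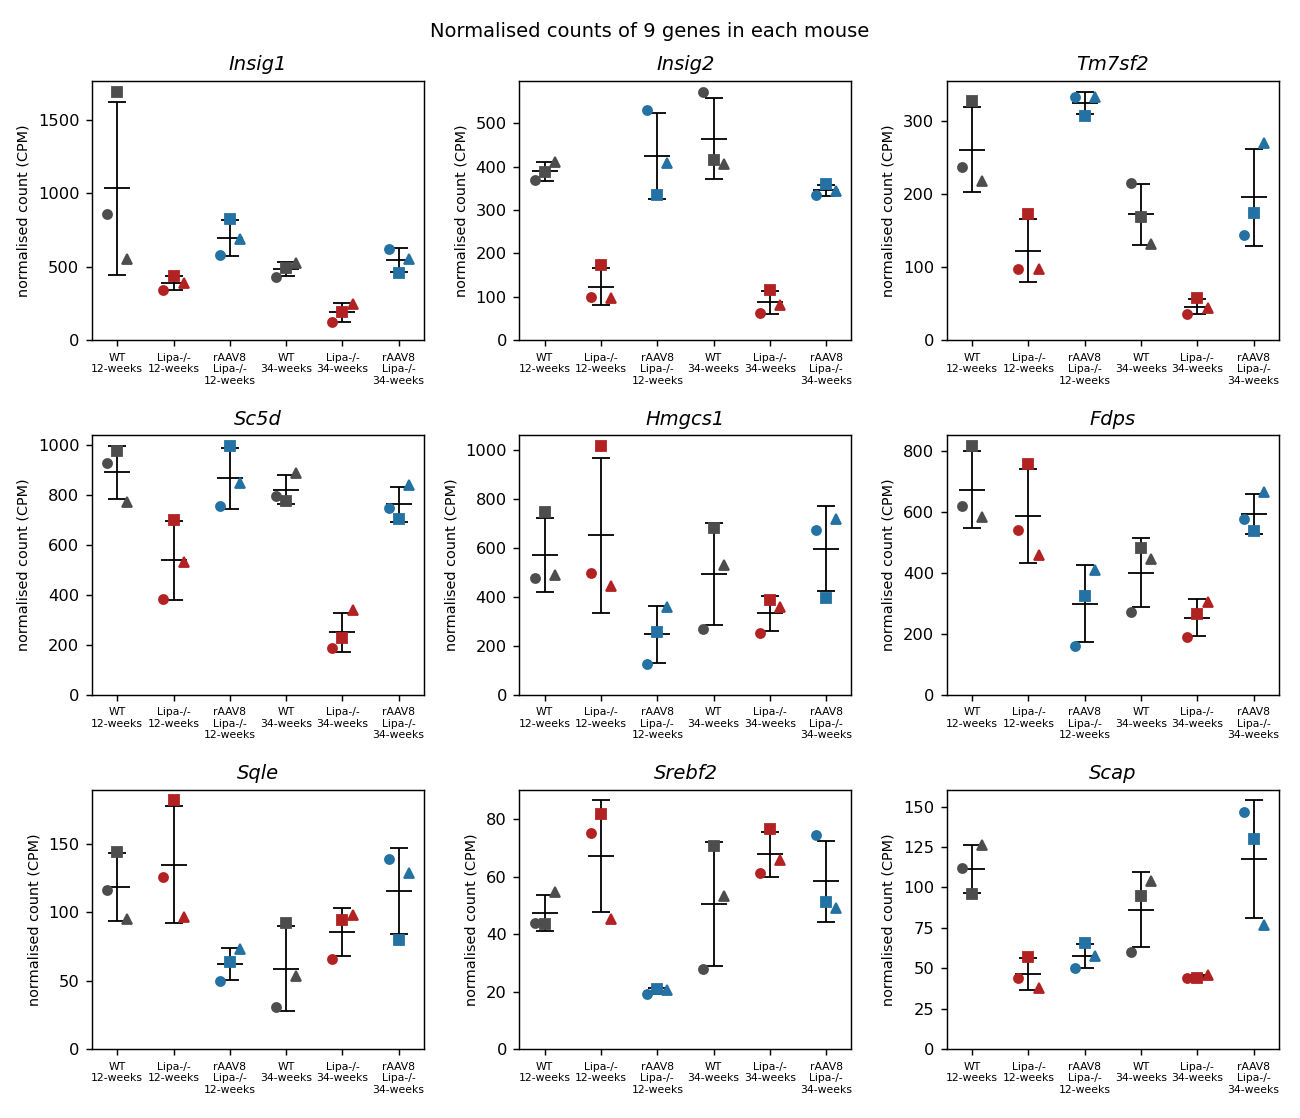
The plot of 9 genes gives the normalised count (CPM, axis from 0) of each mouse as a symbol, with the mean as a horizontal bar and the SD as the error bar (n = 3 per group). Grey marks WT, red Lipa-/- and blue rAAV8-treated Lipa-/- mice. Insig2 and Tm7sf2 are lowest in the red groups at both time points, whereas Srebf2 is lowest in the treated mice at 12-weeks (19.0 to 20.9 CPM).

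Treated mice were next compared with untreated Lipa-/- mice at 12-weeks. Here 2 genes were higher (Insig2 and Tm7sf2) and 6 were lower (Srebf2, Hmgcs1, Mvk, Mbtps1, Lss and Sqle). Of all genes 41.5% were called, 16.2% higher and 25.3% lower. At an adjusted p below 0.05 alone 7 of the 27 were higher and 8 lower, and 54.3% of all genes passed. The share of the 27 that was called lower was thus near that of all genes, and the share called higher was below it. The median log2 fold change was −0.38 over the 27 genes and −0.19 over all genes.

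Insig2 was at 531, 336 and 408 CPM in treated mice, above the 99.9, 173 and 97.1 CPM of untreated mice (1.78 ± 0.28 SE, adjusted p = 8.52e-05). Tm7sf2 was at 333, 307 and 333 CPM, a narrow group that lay above all untreated mice (1.40 ± 0.30 SE, adjusted p = 0.000961). Insig1 (0.84 ± 0.33, adjusted p = 0.0426), Stard4 (0.74 ± 0.22, adjusted p = 0.0108), Ebp (0.92 ± 0.23, adjusted p = 0.00378), Sc5d (0.69 ± 0.26, adjusted p = 0.0312) and Ggps1 (0.92 ± 0.30, adjusted p = 0.0157) passed the adjusted p but not the fold. Under total counts Insig2 and Tm7sf2 were no longer called (log2 fold changes 0.89 and 0.53), no gene of the 27 was called higher and 16 were called lower.

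Srebf2 was at 19.0, 20.9 and 20.6 CPM in treated mice against 75.0, 81.7 and 45.1 CPM in untreated and 43.9, 43.5 and 54.7 CPM in WT mice. All 3 treated mice were below every mouse of both other groups. Its log2 fold change was −1.74 ± 0.30 SE, adjusted p = 0.000192 against untreated mice and −1.23 ± 0.29 SE, adjusted p = 0.00746 against WT mice. Mbtps1, whose protein makes the first cut in SREBP2, was at 7.55, 16.7 and 21.9 CPM in treated mice, 35.7, 39.9 and 35.2 CPM in untreated and 38.3, 36.8 and 51.0 CPM in WT mice. Treated mice were again below both other groups (−1.26 ± 0.30 SE, adjusted p = 0.00215 against untreated, −1.44 ± 0.30 SE, adjusted p = 0.00424 against WT mice). Hmgcs1 was at 125, 256 and 358 CPM in treated mice, below all other mice of that time point (−1.40 ± 0.43 SE, adjusted p = 0.0113 and −1.21 ± 0.43 SE, adjusted p = 0.0351). The WT and the untreated mice enter these comparisons with the same 3 treated livers.

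Mvk was at 16.3, 20.4 and 26.8 CPM in treated mice (−1.33 ± 0.27 SE, adjusted p = 0.000836 against untreated mice), which overlapped the WT range at its lower end. Lss, the lanosterol synthase, was at 30.4, 55.9 and 56.2 CPM (−1.17 ± 0.33 SE, adjusted p = 0.00716), and Sqle at 49.4, 63.7 and 73.2 CPM (−1.12 ± 0.35 SE, adjusted p = 0.0129). Both lay below every untreated and every WT mouse, but against WT mice neither met both thresholds (−0.83 ± 0.33, adjusted p = 0.0572 and −0.93 ± 0.35, adjusted p = 0.045). Against WT mice 6 of the 27 were lower and none higher, namely Srebf2, Mbtps1, Hmgcs1, Fdps, Hsd17b7 and Mvd. Of all genes 25.5% were called in that comparison and 12% were called lower. At an adjusted p below 0.05 alone 8 were lower, with 36.8% of all genes passing. Fdps was at 161, 326 and 409.5 CPM against 621, 819 and 583 CPM in WT mice (−1.17 ± 0.33 SE, adjusted p = 0.0131). Mvd, the mevalonate diphosphate decarboxylase, was at 25.4, 36.8 and 35.3 CPM against 72.0, 75.4 and 48.9 CPM (−1.01 ± 0.36 SE, adjusted p = 0.0362), and Hsd17b7 at 31.1, 33.0 and 51.2 CPM against 76.2, 93.1 and 73.1 CPM (−1.07 ± 0.30 SE, adjusted p = 0.0137). In all 3 genes the groups did not overlap. By contrast, Insig2 (0.13 ± 0.27, adjusted p = 0.732), Tm7sf2 (0.32 ± 0.29, adjusted p = 0.4), Ebp (0.24 ± 0.23, adjusted p = 0.435) and Sc5d (−0.04 ± 0.25, adjusted p = 0.918) had estimates near 0 against WT mice, with a 95% confidence interval of −0.58 to 0.50 for Sc5d.

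The treated livers at 12-weeks also stood apart in base composition. In transcript length WT mouse 1 of 34-weeks (−0.35) lay within their range and the other libraries did not. Across genes, the log2 level of a library relative to the mean of all 18 correlated with transcript length at −0.34 to −0.46 and with GC content at −0.29 to −0.37 in these 3 livers, against −0.35 to 0.51 and −0.16 to 0.28 in the other libraries (a description, since genes are not independent replicates). Srebf2 has a GC content of 58.7%, Scap of 58.1% and Mvd of 59.8%, against a median of 49.2% over all genes tested. With that trend removed (an alternative chosen after the data were seen) Srebf2 was at −0.18 against untreated mice (adjusted p = 0.47) and at −0.22 against WT mice (adjusted p = 0.39), and Mbtps1 at −0.54 and −0.97. Against untreated mice Mvk (−0.95, adjusted p = 0.0027) and Sqle (−0.91, adjusted p = 0.025) then missed only the fold, by little, and Lss missed both thresholds (−0.53, adjusted p = 0.13). Against WT mice Hsd17b7 (−0.88, adjusted p = 0.021) and Mbtps1 also missed only the fold, and Mvd missed both thresholds (−0.59, adjusted p = 0.16). The calls of Hmgcs1 (−1.51 and −1.26) held in both comparisons, as did Fdps against WT mice (−1.61), and other genes became called, among them Scap, higher than in untreated mice (1.82). Without treated mouse 10, in which 16 of the 19 enzymes were lowest of its group, 2 rather than 6 genes were called against WT mice, and without treated mouse 12 there were 10. Macrophage markers summed to 874 to 2661 CPM in these treated livers, between the WT and the untreated values. Against untreated mice 5 of the 8 were called lower and Timd4 and Clec4f higher, and 1 of the 6 hepatocyte markers was called lower in each of the comparisons with untreated and WT mice. Their part was not tested.

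**Figure D4:**
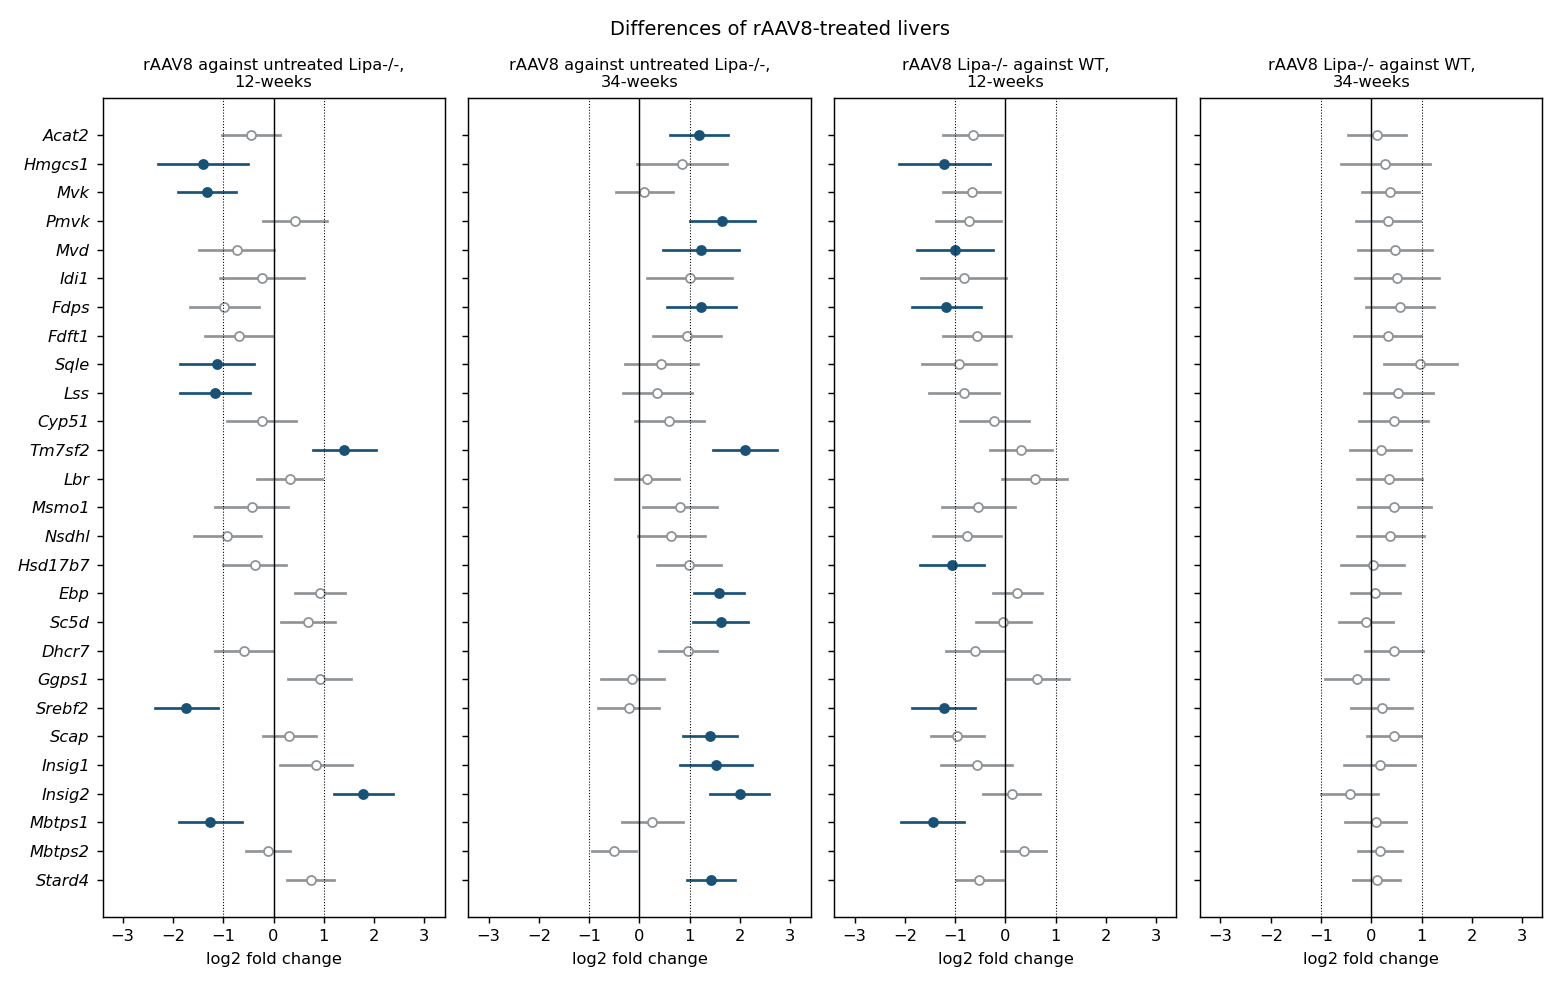
Points give the log2 fold change of each of the 27 genes in treated livers against untreated Lipa-/- livers (first 2 panels) and against WT livers (last 2 panels) at each time point, with the 95% confidence interval as a line. Filled points passed both thresholds and dotted lines mark a log2 fold change of 1. At 12-weeks filled points lie on both sides of 0 against untreated mice (2 right, 6 left), at 34-weeks 11 lie to the right, and against WT mice at 34-weeks none is filled.

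At 34-weeks the treated livers had 11 of the 27 genes higher than untreated Lipa-/- livers and none lower. They were the regulators Insig1, Insig2 and Scap, the carrier Stard4, and 7 enzymes (Acat2, Pmvk, Mvd, Fdps, Tm7sf2, Ebp and Sc5d). Of all genes 31.5% were called and 12.8% were called higher. At an adjusted p below 0.05 alone 14 of the 27 were higher, beside 41.1% of all genes called in either direction. The median log2 fold change was 0.97 over the 27 genes and 0.03 over all genes, and under total counts 0.45 and −0.51.

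Insig2 was at 335, 359 and 343 CPM in treated mice (1.99 ± 0.28 SE, adjusted p = 3.1e-05 against untreated mice), Insig1 at 621, 458 and 551 CPM (1.53 ± 0.34 SE, adjusted p = 0.00174) and Scap at 147, 129.8 and 76.8 CPM (1.40 ± 0.25 SE, adjusted p = 0.00033). No treated mouse overlapped the untreated range in these 3 genes, and Scap was lowest in treated mouse 12. Srebf2 was at 74.5, 51.1 and 49.2 CPM (−0.22 ± 0.29 SE, adjusted p = 0.578), and its groups overlapped. Stard4 was at 107, 84.6 and 66.5 CPM, above the untreated values (1.42 ± 0.23 SE, adjusted p = 9.78e-05).

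Tm7sf2 was at 143, 173 and 269.9 CPM in treated mice (2.10 ± 0.30 SE, adjusted p = 4.02e-05). Sc5d was at 746, 701 and 838 CPM (1.61 ± 0.26 SE, adjusted p = 0.000118) and Ebp at 192, 228 and 261 CPM (1.58 ± 0.24 SE, adjusted p = 6.17e-05). These late enzymes were in every treated mouse above every untreated mouse. Pmvk was at 74.5, 87.4 and 96.5 CPM (1.65 ± 0.31 SE, adjusted p = 0.000421), Fdps at 579, 537 and 665 CPM (1.23 ± 0.33 SE, adjusted p = 0.00616) and Mvd at 63.5, 33.1 and 79.2 CPM (1.22 ± 0.36 SE, adjusted p = 0.0112). Mvd was close to the untreated range in mouse 11 alone. Acat2 differed by 1.19 ± 0.28, adjusted p = 0.00241, with the reservation about Acat3 given above. The squalene and lanosterol steps showed no call, as Fdft1 (0.94 ± 0.32, adjusted p = 0.0264) missed the fold and Sqle (0.43 ± 0.34, adjusted p = 0.342) and Lss (0.35 ± 0.32, adjusted p = 0.413) missed both thresholds. With total counts the calls of Stard4 (0.89), Scap (0.85), Mvd (0.72), Fdps (0.71) and Acat2 (0.66) ended, the other 6 held, and Mbtps2 became lower (−1.05). Of the cell markers, 6 of 8 for macrophages were called lower than in untreated livers and Timd4 higher, and macrophage markers summed to 293 to 724 CPM in the treated mice. All 6 fibroblast and stellate markers and all 4 cholangiocyte markers were called lower, 1 of 6 hepatocyte markers (Apoh) was called higher, and their part was not tested.

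Against WT livers at 34-weeks none of the 27 genes of the treated mice was called by edgeR, and 0.22% of all genes were called under either rule. At an unadjusted p below 0.05 1 gene passed, Sqle, with 138, 79.4 and 128 CPM in treated and 31.0, 91.9 and 53.3 CPM in WT mice (0.97 ± 0.35 SE, adjusted p = 0.617). DESeq2 and limma on TPM also called none. The median log2 fold change over the 27 genes was 0.32, and that of all genes was near 0. For Insig2 the treated mice lay just below all WT mice (−0.43 ± 0.27, adjusted p = 0.954), and for Fdps just above them (0.57 ± 0.32, adjusted p = 0.926, 95% confidence interval of −0.11 to 1.25). That interval leaves room for a change of more than 1 on the log2 scale.

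Between the time points, no gene of the 27 was called in WT mice by edgeR, beside 0.323% of all genes, although 8 had an unadjusted p below 0.05, and no alternative called any. Under TMM scaling the 19 enzymes had a median log2 fold change of −0.51 in WT mice (estimates from −1.07 to −0.12) and of −0.97 in untreated Lipa-/- mice (−1.42 to −0.40). In Lipa-/- mice 2 enzymes were called, Tm7sf2 (−1.42 ± 0.30 SE, adjusted p = 0.0433) and Ebp (−1.22 ± 0.24 SE, adjusted p = 0.0283), beside 0.495% of all genes. Both calls were lost without Lipa-/- mouse 5 or 8 of the earlier time point, or mouse 4 or 5 of the later. Total counts ended both as well (−1.12, adjusted p = 0.070 for Tm7sf2 and −0.93, adjusted p = 0.068 for Ebp).

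In treated mice 4 genes were higher at 34-weeks than at 12-weeks, Mbtps1 (1.68 ± 0.30 SE, adjusted p = 0.00144), Srebf2 (1.53 ± 0.30 SE, adjusted p = 0.00168), Hmgcs1 (1.28 ± 0.43 SE, adjusted p = 0.0228) and Scap (1.03 ± 0.25 SE, adjusted p = 0.00432). Ggps1, which makes geranylgeranyl diphosphate for protein prenylation, was lower, with 5.53, 6.56 and 7.82 CPM against 21.4, 12.7 and 12.4 CPM (−1.22 ± 0.30 SE, adjusted p = 0.0045). Of all genes 32% were called and 17.5% were called higher. With the length and GC trend removed only the call of Hmgcs1 held (1.28). Mbtps1 (0.98) and Ggps1 (−0.66) then missed the fold, Srebf2 (0.11, adjusted p = 0.69) and Scap (−0.39, adjusted p = 0.10) missed both thresholds, and Fdps became higher. With total counts the call of Ggps1 ended (−0.55), the other 4 held and 11 more genes were higher. The change of the treated to WT difference between time points, taken as a second interaction, was called in 7 genes, all with a larger value at 34-weeks (Sqle, Fdps, Mbtps1, Mvd, Srebf2, Scap and Lss), beside 18.4% of all genes called and 8.58% called higher. The calls rested on single livers. Without WT mouse 1 or 3 of 12-weeks, WT mouse 1 of 34-weeks or treated mouse 9 of 34-weeks none was called, without treated mouse 10 of 12-weeks only Mbtps1 was, and without treated mouse 12 there were 12. With the trend removed the calls of Fdps (2.20) and Sqle (1.82) held and the other 5 ended, with Srebf2 at 0.29 and Scap at 0.21. Treated livers of the 2 time points also differ in the prefix of the sample name and in the length and GC trend given above.

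Levels summed over the 19 enzymes compare the route as a whole. The summed length-corrected level was 2096, 2520.0 and 2101 TPM in WT mice, 1909.9, 3332 and 2143 TPM in Lipa-/- mice and 652, 1282 and 1122 TPM in treated mice at 12-weeks. In TPM all treated mice were thus below the other 2 groups, and the Lipa-/- mice overlapped the WT mice. At 34-weeks the sums were 1146, 2446 and 2081 TPM, 1466, 1552 and 1692 TPM and 2628, 1926 and 2915 TPM. The WT mice spread widely there, mouse 1 being low, and overlapped both other groups in TPM. On the normalised count scale, the means were 4723 ± 1093 CPM (SD, n = 3), 3921 ± 1377 and 3380 ± 660 at 12-weeks and 3417 ± 560, 1947 ± 398 and 4127 ± 783 at 34-weeks for WT, Lipa-/- and treated mice. At 12-weeks the mean of the Lipa-/- mice was thus above the WT mean in TPM and below it in CPM, and at 34-weeks both scales gave the same order of groups. The separation of single mice also depended on the scale. In CPM the treated mice at 12-weeks (2635 to 3892) overlapped WT (3850 to 5949) and Lipa-/- mice (3092 to 5510). At 34-weeks the Lipa-/- mice (1491 to 2226 CPM) were below all WT (2831 to 3945) and treated mice (3415 to 4966). TPM is a share of all transcripts in a liver, so its sums also move with the most abundant transcripts. Within a group the enzymes followed the mouse. WT mouse 2 at 12-weeks had the highest value of its group in 19 of 19 enzymes, Lipa-/- mouse 8 at 12-weeks in 18, and Lipa-/- mouse 4 at 34-weeks had the lowest in 18. The median coefficient of variation over the enzymes was 21.2% to 35.0% by group.

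The share of each enzyme in the summed TPM of the 19 does not depend on scaling between mice, although the shares add to 100% and so move together. They also keep the length and GC trend that set the treated livers at 12-weeks apart. Tm7sf2 took 8.42% ± 0.050 (SD, n = 3) of the sum in WT mice at 12-weeks, 4.94% ± 0.14 in Lipa-/- mice and 15.6% ± 3.9 in treated mice. Its own mean level was 150 TPM in these treated mice and 189 TPM in the WT mice, so the larger share goes with a lower sum. At 34-weeks its shares were 8.28% ± 3.1, 4.04% ± 0.68 and 7.22% ± 1.4. Mvk took 1.05% ± 0.062 in WT mice and 1.95% ± 0.15 in Lipa-/- mice at 12-weeks, and 1.05% ± 0.14 and 2.26% ± 0.096 at 34-weeks. Sqle took 1.76% ± 0.073 and 2.55% ± 0.35 at 12-weeks and 1.23% ± 0.49 and 3.38% ± 0.027 at 34-weeks in the same groups. The makeup of the route in Lipa-/- livers thus held less Tm7sf2 and more Mvk and Sqle than in WT livers, with no overlap of the mice in any of these shares. Such separation was common among the 19 enzymes and not particular to these 3. At 12-weeks 9 shares were above and 4 below those of WT mice without overlap, and at 34-weeks 10 were above and 5 below. No such count was made over all genes, so whether these counts are unusual was not tested. The share of Fdps was 25.2% ± 1.1 in WT, 28.3% ± 3.2 in Lipa-/- and 15.5% ± 3.9 in treated mice at 12-weeks, and 21.3% ± 3.6, 24.9% ± 1.0 and 25.8% ± 1.5 at 34-weeks. No test was run on the shares.

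**Figure D5:**
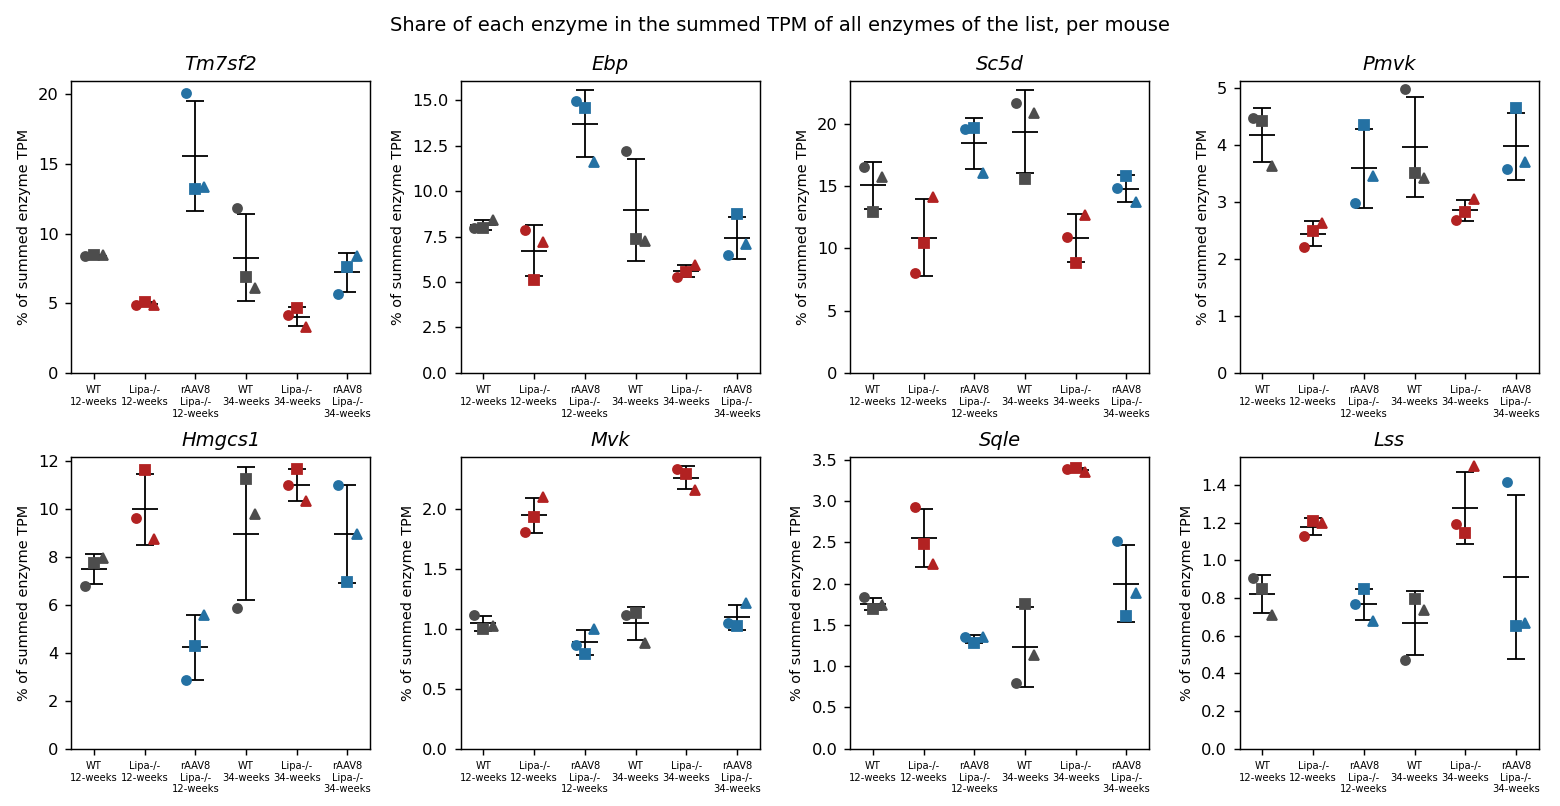
Each panel gives the share of an enzyme in the summed TPM of the 19 enzymes, in percent (axis from 0), with a symbol per mouse and the mean and SD of the 3 mice. Grey marks WT, red Lipa-/- and blue rAAV8-treated Lipa-/- mice. The Tm7sf2 share is 6.07% to 11.9% in WT mice, 3.30% to 5.10% in Lipa-/- mice and 13.2% to 20.1% in treated mice at 12-weeks. The summed TPM of those treated mice is below that of the WT mice of the same time point.

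Ratios of transcripts with related functions were also compared within each liver. Tm7sf2 exceeded Lbr, the other C14 reductase gene, by 59.6 ± 7.5 times (SD, n = 3, on TPM) in WT mice at 12-weeks, 22.4 ± 9.6 times in Lipa-/- mice and 44.6 ± 4.9 times in treated mice. At 34-weeks these ratios were 47.7 ± 5.5, 11.4 ± 3.5 and 40.6 ± 4.6. Lipa-/- mice were below both other groups at both time points, with no mouse overlapping. Lbr was low, with a mean of 3.19 TPM in WT and 6.09 TPM in Lipa-/- mice at 12-weeks and of 3.01 and 5.79 TPM at 34-weeks. The part of other cell types in this ratio was not tested. The ratio of Insig1 to Insig2 was 1.62 ± 0.94, 2.11 ± 0.48 and 1.32 ± 0.47 at 12-weeks and 0.685 ± 0.13, 1.28 ± 0.46 and 0.920 ± 0.20 at 34-weeks for WT, Lipa-/- and treated mice. Only at 34-weeks were the Lipa-/- ratios (0.917 to 1.80) all above those of WT mice (0.530 to 0.767). The ratio of Fdps to Ggps1, the enzymes on either side of the isoprenoid branch, was 126 ± 23 in WT, 195 ± 97 in Lipa-/- and 38.6 ± 21 in treated mice at 12-weeks and 98.6 ± 50, 76.8 ± 25 and 156 ± 29 at 34-weeks. For this ratio the Lipa-/- mice overlapped the WT mice at both time points. GC content is 50.6% for Fdps and 40.2% for Ggps1. Ratios within a liver keep the length and GC trend of the treated livers at 12-weeks, and the part of that trend was not tested.

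Genes around the route, which are not among the 27, were followed in 3 lists. Of 7 electron donors and carriers that serve the sterol enzymes, 1 was higher and 3 lower in Lipa-/- than in WT livers at 12-weeks, and 5 were lower and none higher at 34-weeks. Of all genes, as above, 29.3% were called and 9.06% were lower at 12-weeks, and 36.3% and 15.7% at 34-weeks. Pgrmc1, a haem-binding partner of cytochrome P450 enzymes such as Cyp51, was at 1643, 1847 and 1430.3 CPM in WT and 410.3, 610.1 and 627 CPM in Lipa-/- mice at 12-weeks (−1.58 ± 0.29 SE, adjusted p = 0.000364). Cyb5b, a cytochrome b5, was at 531, 481 and 582 CPM and 134, 173 and 143 CPM (−1.82 ± 0.27 SE, adjusted p = 5.16e-05). In both genes the groups were far apart. Por, the reductase that passes electrons to Cyp51 and squalene epoxidase, was the 1 higher gene, at 271, 185 and 145 CPM in Lipa-/- and 69.1, 92.1 and 90.1 CPM in WT mice (1.26 ± 0.26 SE, adjusted p = 0.00115). In treated against untreated mice 2 of the 7 were higher and none lower at 12-weeks, and 6 higher and none lower at 34-weeks (41.5% and 31.5% of all genes called), and against WT mice at 34-weeks none was called.

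Of 13 genes of sterol-regulated degradation or SREBP partners, 2 were higher and none lower in Lipa-/- livers at 12-weeks and 2 were higher and 3 lower at 34-weeks, beside 29.3% and 36.3% of all genes called in either direction. The higher genes were the same at both time points. Rnf145, a ubiquitin ligase of the endoplasmic reticulum, was at 6.43, 6.70 and 10.8 CPM in WT and 31.4, 28.4 and 16.3 CPM in Lipa-/- mice at 12-weeks (1.67 ± 0.39 SE, adjusted p = 0.00279). Nfya, a subunit of the NF-Y factor that binds CCAAT, was at 8.20, 9.28 and 9.11 CPM and 23.4, 19.0 and 18.8 CPM (1.20 ± 0.23 SE, adjusted p = 0.000476), and both genes were free of overlap there. The other NF-Y subunits did not follow Nfya and were not called at 12-weeks. Nfyb was at 33.4, 30.1 and 28.1 CPM in WT and lower, at 20.9, 22.9 and 20.2 CPM, in Lipa-/- mice. Nfyc overlapped, at 14.2, 14.6 and 17.5 CPM in WT and 18.1, 14.8 and 14.4 CPM in Lipa-/- mice. In treated mice at 12-weeks 2 of the 13 were higher and 3 lower than in untreated mice (41.5% of all genes called), Rnf145 (−2.90 ± 0.42 SE, adjusted p = 4.66e-05) and Nfya (−1.61 ± 0.23 SE, adjusted p = 4.42e-05) among the lower. All values of the related lists are under TMM scaling, with the length and GC trend of these treated livers left in. Rnf145 was also low in WT mouse 1 of 34-weeks, at 6.55 CPM against 18.6 and 19.1 CPM in the other WT mice of that time point. Of 13 genes that use isoprenoids for dolichol, ubiquinone or protein prenylation, none was higher and 2 were lower in Lipa-/- livers at 34-weeks. At 12-weeks 1 was higher and 1 lower. Calls in either direction were below the same shares of all genes. The lower calls alone were near the 9.06% (12-weeks) and 15.7% (34-weeks) of all genes called lower, and 13 genes are too few to tell such shares apart. Srd5a3, a polyprenol reductase of dolichol synthesis, was the higher at 12-weeks (1.57 ± 0.24 SE, adjusted p = 8.47e-05). Pdss2, a subunit of the synthase that makes the ubiquinone side chain, was the lower at that time point (−1.08 ± 0.21 SE, adjusted p = 0.00062).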

How the data were processed

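Polyadenylated liver RNA of 18 mice was sequenced, and the 6 groups follow the sample labels. Salmon, run by the authors against GRCm39 transcripts, gave estimated counts that tximport collapsed to genes, and the deposited counts carry no scaling. Salmon also gave the deposited TPM values and effective gene lengths (in bases). A further deposited table, of the authors' comparisons, which holds log2 fold changes and p-values from DESeq2 (version 1.40.1 under R 4.3.0, per the submitters' processing notes), was not used.

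Counts were rounded and analysed in R 4.3.3 with edgeR 4.0.16. Genes with more than 100 reads in all (14533 of 35441) entered a quasi-likelihood fit with 6 group means and TMM factors. The 11 contrasts were 6 within a time point, 3 between time points and 2 interactions. A gene was called at an absolute log2 fold change above 1 and an adjusted p (Benjamini-Hochberg over all genes tested) below 0.05. Differences are log2 fold changes with SE. Normalised counts are CPM over TMM-scaled library sizes. Levels of different genes were compared only as TPM. The fit was tested on simulated data. An exact permutation test of 3 against 3 mice cannot go below p = 0.1, so none was run. The labels give each library its own mouse. Intervals and p-values measure the spread between these mice.

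The 27 genes, the marker lists and the lists of related genes were chosen with earlier results of these data known. All called genes of the 27, and genes of the main steps that were not called, are named. Of each related list, at most 2 genes per direction called between Lipa-/- and WT mice at 12-weeks, those of largest change, are named. Nfyb and Nfyc are named in addition, as the other subunits of NF-Y. Alternatives were other scalings and filters, DESeq2 1.42.0 and edgeR with gene lengths, limma 3.58.1 on log2(TPM + 0.1) and log2(TPM + 1), a fit of the compared groups alone, other thresholds, a replicate block, leaving out each mouse, and removal of a trend with transcript length and GC content. Promoter sequences come from RefSeq (GRCm38.p6), which is not the build of the counts, so that only gene names link them.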

Additional observations from a re-analysis of the deposited data

Results flagged for a closer look

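The difference between treated and WT livers changed between 12- and 34-weeks in 7 of the 27 genes, by the interaction test of edgeR. The change, as a log2 fold change at 34-weeks minus that at 12-weeks, was 1.90 for Sqle (adjusted p = 0.0257), 1.74 for Fdps (adjusted p = 0.0260), 1.53 for Mbtps1 (adjusted p = 0.0266) and 1.48 for Mvd (adjusted p = 0.0485). It was 1.43 for Srebf2 (adjusted p = 0.0297), 1.40 for Scap (adjusted p = 0.0249) and 1.36 for Lss (adjusted p = 0.0489). In all 7 genes the treated to WT difference was higher at 34-weeks. Leaving out 1 mouse at a time, 0 to 12 genes were called, with 0 in the absence of WT mouse 1 or 3 of 12-weeks, WT mouse 1 of 34-weeks or treated mouse 9 of 34-weeks, and 1 (Mbtps1) in the absence of treated mouse 10 of 12-weeks. With the trend of transcript length and GC content removed, Fdps and Sqle of the 7 were still called. Time point and the prefix of the sample name cannot be told apart in these samples.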

How the results depend on the processing

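The spread between the 3 mice of a group limits what can be called, and depth was at least 77.7 reads for any of the 27 genes in any mouse. The calls at 12-weeks depend on how libraries of unlike composition are scaled. In the 6 comparisons within a time point none of the 27 genes, where called, reversed its direction in any alternative. Scaling by total counts gave 2 calls in place of 6 for Lipa-/- against WT mice at 12-weeks, 5 in place of 8 at 34-weeks, 16 in place of 8 for treated against untreated mice at 12-weeks, 7 in place of 11 at 34-weeks, 14 in place of 6 for treated against WT mice at 12-weeks, 0 in place of 2 for Lipa-/- mice between time points, 15 in place of 5 for treated mice between time points and 17 in place of 7 for the change of the treated to WT difference. With limma on log2(TPM + 0.1) the same comparisons gave 1, 6, 17, 7, 19, 0, 20 and 20 calls, and on log2(TPM + 1) they gave 1, 6, 16, 6, 19, 0, 19 and 18. By total counts the share of higher calls among all genes went from 69.1% to 87.2% and from 56.6% to 81.8% for Lipa-/- against WT mice, from 39.0% to 8.92% and from 40.8% to 18.5% for treated against untreated mice, and from 53.1% to 24.4% for treated against WT mice at 12-weeks. Of the other settings, an adjusted p alone gave 15 calls for treated against untreated mice at 12-weeks and 8 for treated mice between time points, and an adjusted p below 0.01 gave 2 for treated against WT mice at 12-weeks. For Lipa-/- mice between time points there was 1 call with DESeq2-type size factors, with upper-quartile scaling or with the length and GC trend removed, 4 with DESeq2 and gene lengths, and 0 with hepatocyte marker scaling, a fit of the compared groups or an adjusted p below 0.01. The change of the treated to WT difference gave 1 call with hepatocyte marker scaling, 11 with DESeq2 and gene lengths, and 0 with a fit of the compared groups or an adjusted p below 0.01. Removing the trend, chosen after the data were seen, left 2 calls for treated mice between time points. The cause of these moves was not tested.

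Leaving out 1 mouse at a time gave 3 to 8 and 7 to 11 calls for Lipa-/- against WT mice at 12- and 34-weeks, 6 to 11 and 9 to 15 for treated against untreated mice, 2 to 10 for treated against WT mice at 12-weeks, 0 to 2 for Lipa-/- mice between time points, 2 to 8 for treated mice between time points and 0 to 12 for the change of the treated to WT difference. The lowest count of treated mice between time points came without treated mouse 10 of 12-weeks and the highest without treated mouse 12. The mouse numbers shared by time points do not mark repeated samples of 1 animal, because livers were taken at sacrifice. The deviations of same-numbered mice correlated at 0.08, −0.24 and 0.46 in WT and −0.08 and −0.25 in treated mice. With 3 mice per group these correlations cannot decide on any other pairing. With the number as a replicate block, 0 genes were called in WT mice and 2 in treated mice between time points.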

Other observations

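The proteases that release SREBP2 were measured together in each liver. The ratio of Mbtps1 to Mbtps2 (TPM, mean ± SD, n = 3) was 5.95 ± 2.6 in WT, 3.78 ± 0.68 in Lipa-/- and 2.21 ± 1.4 in treated mice at 12-weeks. At 34-weeks it was 7.11 ± 1.7, 3.78 ± 0.73 and 6.93 ± 2.4. Treated mouse 10 at 12-weeks had the lowest ratio, 0.655. GC content is 50.2% for Mbtps1 and 37.8% for Mbtps2. The ratio therefore keeps the length and GC trend that set the treated livers at 12-weeks apart, and the part of that trend was not tested. Idi2, a near copy of Idi1, had no read in any of the 18 livers.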
